A study of Mus musculus with 10 samples.

Results

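In embryonic mouse kidneys, 10 genes of the maturing proximal and distal tubule were followed, some of which are genes of the mature tubule. They are the proximal tubule genes Hnf4a, Lrp2, Cubn, Slc34a1, Slc27a2, Slc5a2 and Fbp1 and the genes of the loop of Henle and distal tubule Umod, Slc12a1 and Pou3f3. They were chosen by symbol, and all 10 were found among the 35663 entries of the expression table.

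The study removed netrin 1 (Ntn1), a secreted guidance protein, from the stroma of the kidney to ask what stromal netrin 1 does during kidney development. RNA of whole E13.5 kidneys (strain C57/b6) was sequenced in 10 libraries. The 4 wild-type libraries are labelled only as wild type. The 3 control libraries carried Foxd1-Cre, a Cre recombinase expressed from the Foxd1 gene of stromal progenitors, and the 3 mutant libraries carried Foxd1-Cre together with a conditional Ntn1 allele (Foxd1-Cre; Ntn1c/c, called Ntn1SPKO by the study). Control and mutant therefore share the Cre allele and wild type lacks it, and recombination is limited to cells of the Foxd1 lineage, which are not the cells that build the tubules. According to the paper, this Cre line also lacks a Foxd1 allele, which it raises as a possible contributor to the vessel defects. In comparisons with wild type, the Cre and the lost Foxd1 allele cannot be told apart. Where the study plots these data it counts each embryo as a replicate, from several litters, while the labels tie no library to an embryo or a litter. The p-values measure the spread between these libraries.

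The nephron tubule arises from progenitor cells of the cap mesenchyme, which form a renal vesicle, then comma-shaped and S-shaped bodies, and only then elongating proximal and distal tubules. The proximal tubule takes up filtered protein, phosphate and glucose, and HNF4A is the transcription factor required for its maturation. POU3F3 (BRN1) is needed for the loop of Henle and distal nephron, where uromodulin and the sodium-potassium-chloride cotransporter are made later. In a whole kidney, fewer cells of a type and less RNA per cell cannot be told apart.

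The promoters of these genes were read first, because HNF1 factors, which bind copies of the half-site GTTAAT, act in tubule differentiation. RefSeq windows of 250 bases before the start (build GRCm38.p6) were found for 9 of the 10 members, with 10 windows in all because Hnf4a has an upstream and a downstream start. GTTAAT on either strand (ATTAAC on the other) was present in 6.43% of all 32851 promoter windows and in 3 of the 10 member windows. The following 4 windows show the contrast between the Hnf4a starts and the members that hold the letters. Each is written 5′ to 3′ on the strand of the gene, and capitals mark GTTAAT or ATTAAC.
Hnf4a upstream start, chr2:163506607-163506856, plus strand: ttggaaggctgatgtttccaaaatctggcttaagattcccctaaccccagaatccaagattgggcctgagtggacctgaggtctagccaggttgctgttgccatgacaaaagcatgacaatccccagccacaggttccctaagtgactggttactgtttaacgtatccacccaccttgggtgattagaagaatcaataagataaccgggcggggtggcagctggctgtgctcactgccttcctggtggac
Hnf4a downstream start, chr2:163546905-163547154, plus strand: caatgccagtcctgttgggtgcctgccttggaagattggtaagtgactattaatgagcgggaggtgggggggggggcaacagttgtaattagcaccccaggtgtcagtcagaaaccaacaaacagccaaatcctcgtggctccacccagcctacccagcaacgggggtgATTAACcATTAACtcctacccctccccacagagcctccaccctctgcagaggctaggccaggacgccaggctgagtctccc
Umod, chr7:119479263-119479512, minus strand: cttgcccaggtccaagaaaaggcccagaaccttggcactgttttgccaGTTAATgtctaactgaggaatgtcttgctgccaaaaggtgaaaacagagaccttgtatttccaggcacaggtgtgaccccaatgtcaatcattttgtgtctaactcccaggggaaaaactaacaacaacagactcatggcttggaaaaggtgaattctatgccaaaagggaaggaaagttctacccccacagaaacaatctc
Slc34a1, chr13:55399398-55399647, plus strand: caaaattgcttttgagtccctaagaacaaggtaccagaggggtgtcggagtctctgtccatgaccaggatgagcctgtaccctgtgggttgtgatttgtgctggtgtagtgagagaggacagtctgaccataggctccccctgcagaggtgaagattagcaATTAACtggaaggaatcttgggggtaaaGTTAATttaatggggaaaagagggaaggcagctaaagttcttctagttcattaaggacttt

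The downstream Hnf4a window held the letters in pairs, beginning 74 and 81 bases before the start, whereas the upstream window held no exact match to these letters. The Umod window held them at 202 bases and the Slc34a1 window at 61 and 89 bases. A second motif, CAAAGT, which is part of the HNF4 site, occurred on either strand in 12.6% of all windows and in 1 member window, that of Lrp2, and did not overlap the first. The exact bases that follow the downstream Hnf4a start, the Slc34a1 start and the Cubn start were found in no GENCODE transcript of the gene. The Cubn window held neither motif. These matches are letters in a window and were not tested as binding sites.

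The libraries were similar in depth and held kidney RNA. From the steps of the low values, each held about 33.7 to 39.3 × 1000000 fragments, and the summed FPKM (fragments per kilobase of coding sequence, scaled to the depth of the library) ran from 795829 to 1002638, with wild type 3 the highest. Six2, Wt1, Pax2, Foxd1 and Ret, which mark nephron progenitors, stroma and ureteric tips, were present in every library, with Ret at 4.09 FPKM in control 3 against 14.1 to 20.9 elsewhere. Ntn1 was at 16.3, 13.1 and 10.7 FPKM in the mutants and at 24.2 to 51.4 FPKM in the other libraries. Control 3 and wild type 3 stood apart: of 14534 genes, control 3 held the lowest value of 24.1% and wild type 3 the lowest of 18.4% and the highest of 21.5%. Transcripts of Y-linked genes were present in wild type 3, control 2 and all 3 mutants. Group and Y-linked signal therefore overlap in part, and the member values that rest most on one library are also given without it.

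Cubn, Slc27a2 and Slc12a1 lie on chromosome 2 with Hnf4a and Lrp2, Slc34a1 and Fbp1 on chromosome 13, Umod and Slc5a2 on chromosome 7 and Pou3f3 on chromosome 1. The 10 members fell into 4 ranges of level, in FPKM, which is per length. Pou3f3 was the highest, with a mean of 7.50 FPKM over the 10 libraries, above 74.6% of all entries. Lrp2 and Hnf4a followed at 0.965 and 0.927 FPKM, and these neighbours did not differ beyond their spread, since Hnf4a ranged from 0.203 to 1.72 FPKM and Lrp2 from 0.648 to 1.52 FPKM. Slc27a2 at 0.343, Umod at 0.174 and Cubn at 0.120 FPKM made up the next range, and these neighbours also overlapped between libraries. Fbp1 at 0.0226, Slc5a2 at 0.0106, Slc12a1 at 0.00419 and Slc34a1 at 0.00164 FPKM were listed at 0 in most libraries. Those 4 are transporters and an enzyme of the mature tubule, and their values amounted to at most about 3 fragments in any library.

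**Figure D1:**
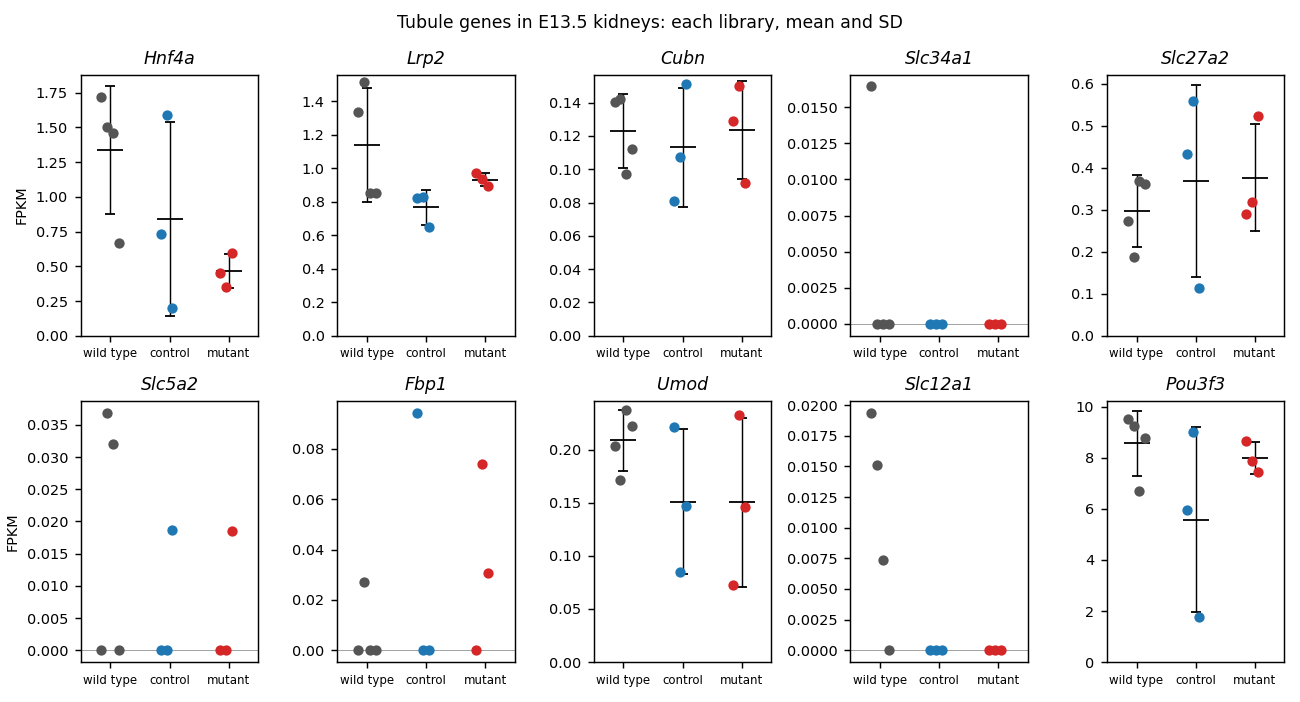
FPKM (vertical axis) of the 10 members in each library, with wild type in grey (n = 4), control in blue (n = 3) and mutant in red (n = 3); bars give the mean and SD for the 6 members above 0 in every library, and each panel has its own linear scale. Hnf4a lies between 0.353 and 0.594 FPKM in the mutants, below the 4 wild-type libraries, while 2 controls lie above the mutants' range and 1 below it at 0.203 FPKM.

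Hnf4a (chromosome 2, 163506808 to 163572910 in GRCm38, plus strand) had the largest difference of any member between mutant and wild type, whereas in the other 2 comparisons Pou3f3 had the largest. It was at 1.72, 1.50, 1.46 and 0.669 FPKM in wild type 1 to 4, at 0.732, 1.59 and 0.203 FPKM in control 1 to 3, and at 0.454, 0.353 and 0.594 FPKM in mutant 1 to 3. All mutants were below all wild-type libraries, whereas the controls spanned both groups, from below the lowest mutant to within the wild-type range. The values rest on about 28 to 80 fragments in wild type, 9 to 70 in controls and 17 to 24 in mutants.

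Against wild type, Hnf4a was lower in the mutants by a log2 difference of -1.29 (standard error 0.35), on the log2(FPKM + 0.1) scale used for all differences here. This scale understates the change of low genes. Standard errors of genes tested by limma are its moderated ones, which draw on the variance of all tested genes. The unadjusted p of limma's moderated test was 0.00655 and the adjusted p was 0.486, so the difference did not pass the threshold of an adjusted p of 0.1. The exact two-sided permutation p was 0.0571, where 3 against 4 libraries allow 0.0286 at the smallest. Of all 14432 genes tested in this comparison, 3.31% were lower and 2.45% higher at an unadjusted p under 0.05, and 3.54% were lower and 3.56% higher with no overlap between the groups. Hnf4a was the 1 member of 3 tested in the lower class of both counts, and no member was in the higher class of either. Wild type 4 was the lowest wild-type library, and without it the log2 difference was -1.57 with a limma adjusted p of 0.173.

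Against the controls, the log2 difference of Hnf4a was -0.43 (standard error 0.66), well within the spread between libraries. The limma adjusted p was 0.763 and the exact permutation p 0.6. It depended on single controls. Without control 3 it was -1.09 (limma adjusted p = 0.673), and the mutants then lay below both remaining controls, and without control 2 it was 0.15, of the opposite sign. Between control and wild type the log2 difference was -0.86 (standard error 0.59, limma adjusted p = 0.680), and without control 3 it was -0.21. Among the libraries with Y-linked transcripts, wild type 3 and control 2 were at 1.46 and 1.59 FPKM and the 3 mutants at 0.353 to 0.594 FPKM.

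The endocytic receptors did not share this order. Lrp2 (megalin, chromosome 2, 69424340 to 69586065, minus strand), the large receptor that takes up filtered protein, was at 1.34, 1.52, 0.851 and 0.851 FPKM in wild type, 0.824, 0.830 and 0.648 FPKM in controls, and 0.969, 0.934 and 0.893 FPKM in mutants. The mutants lay above all controls and inside the wild-type range, and the controls lay below all wild-type libraries. Its coding sequence of 13980 bases gave about 312 to 759 fragments per library, so its low FPKM is better measured than that of most shorter members. Pou3f3, shorter but higher in FPKM, had about 80 to 469.

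The log2 difference of Lrp2 was 0.26 between mutant and control (standard error 0.24, limma adjusted p = 0.614). The exact permutation p was 0.1, the smallest that 3 against 3 libraries allow. It was -0.48 between control and wild type (standard error 0.28) and -0.22 between mutant and wild type (standard error 0.25). Their exact permutation p-values were 0.143 and 0.429 and their limma adjusted p-values 0.669 and 0.947. Of all genes tested between mutant and control, 8.91% had every mutant below every control and 11% every mutant above, so separation of 1 tested member of 3 in the higher direction is to be read against a frequent event. Between control and wild type the shares were 4.04% lower, where Lrp2 lay, and 4.04% higher.

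Cubn (cubilin), the partner receptor of megalin, was at 0.140, 0.142, 0.0972 and 0.112 FPKM in wild type, 0.0809, 0.107 and 0.152 FPKM in controls, and 0.129, 0.150 and 0.0920 FPKM in mutants. The 3 groups overlapped in full, and control 3, which was lowest for Lrp2 and Hnf4a, was the highest library for Cubn. The log2 difference was 0.07 between mutant and control (standard error 0.18, exact permutation p = 0.8), from about 30 to 63 fragments per library. Cubn, like the members below apart from Pou3f3, was under the mean of 0.5 FPKM needed for the limma test. Standard errors of these untested members come from the pooled SD of their own libraries. They are not comparable with limma's for Hnf4a, Lrp2 and Pou3f3.

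Slc27a2, a fatty acid transporter and acyl-CoA synthetase of proximal tubule cells, was at 0.273, 0.187, 0.370 and 0.362 FPKM in wild type, 0.433, 0.559 and 0.114 FPKM in controls, and 0.289, 0.318 and 0.523 FPKM in mutants. The controls held both its highest and its lowest value. The log2 difference was 0.15 between mutant and control (standard error 0.54, exact permutation p = 0.9) and 0.26 between mutant and wild type (standard error 0.26, exact permutation p = 0.429), on about 7 to 34 fragments.

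The other proximal members were at the edge of detection. Slc34a1, the sodium-phosphate cotransporter of the brush border, was at 0.0164 FPKM in wild type 1, about 1 fragment, and listed at 0 in the other 9 libraries. Slc5a2, the glucose transporter SGLT2, was at 0.0369 and 0.0320 FPKM in wild type 2 and 3, at 0.0187 FPKM in control 3 and at 0.0185 FPKM in mutant 3, and was listed at 0 elsewhere. Fbp1, an enzyme of gluconeogenesis, was at 0.0270 FPKM in wild type 2, 0.0944 FPKM in control 1, and 0.0741 and 0.0305 FPKM in mutant 2 and 3. With 1 to 3 fragments behind each value above 0, no difference between groups was detectable at this depth.

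Pou3f3 (chromosome 1, 42695768 to 42703176, plus strand) was the distal member with the highest level. It was at 9.51, 9.26, 6.72 and 8.77 FPKM in wild type, 5.97, 9.00 and 1.77 FPKM in controls, and 8.68, 7.86 and 7.46 FPKM in mutants. The mutants lay within the wild-type range, and control 3 was far below all other libraries. The log2 difference was 0.79 between mutant and control (standard error 0.55) and -0.87 between control and wild type (standard error 0.48). Their exact permutation p-values were 0.4 and 0.0857 and their limma adjusted p-values 0.527 and 0.665. Without control 3 these were 0.12 and -0.21. Between mutant and wild type the log2 difference was -0.09 (standard error 0.13, limma adjusted p = 0.956).

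Umod, the most abundant protein of adult urine and made in the thick ascending limb, was at 0.204, 0.171, 0.238 and 0.222 FPKM in wild type, 0.221, 0.0847 and 0.147 FPKM in controls, and 0.0730, 0.232 and 0.145 FPKM in mutants. All 3 groups overlapped, and the log2 difference was -0.02 between mutant and control (standard error 0.36) and -0.35 between mutant and wild type (standard error 0.24, exact permutation p = 0.229), on about 5 to 16 fragments. Slc12a1, the sodium-potassium-chloride cotransporter of the same segment, was at 0.0194, 0.0151 and 0.00739 FPKM in wild type 1 to 3 and was listed at 0 in wild type 4, all controls and all mutants. Its values correspond to about 2, 2 and 1 fragments.

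No member was called in any comparison by limma (a 2-fold or larger change whose adjusted p is below 0.1). The 3 members with a mean of at least 0.5 FPKM were tested each time, and 1 of them, Hnf4a between mutant and wild type, was under an unadjusted p of 0.05. Few genes of the whole table were called: 8 of 14550 (0.055%) between mutant and control, 1 of 14594 (0.00685%) between control and wild type, and 7 of 14432 (0.0485%) between mutant and wild type. At an unadjusted p under 0.05 the background was 5.17% lower and 5.49% higher between mutant and control, and 3.23% lower and 3.84% higher between control and wild type, with 0 members in any of these 4 classes. Over the 6 members above 0 in every library, the median log2 difference was 0.11 between mutant and control, -0.40 between control and wild type and -0.15 between mutant and wild type, where the median over all genes tested was within 0.01 of 0. Control 3 held the lowest value of 4 of these 6 members (Hnf4a, Lrp2, Slc27a2 and Pou3f3) and the highest of 1 (Cubn).

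**Figure D2:**
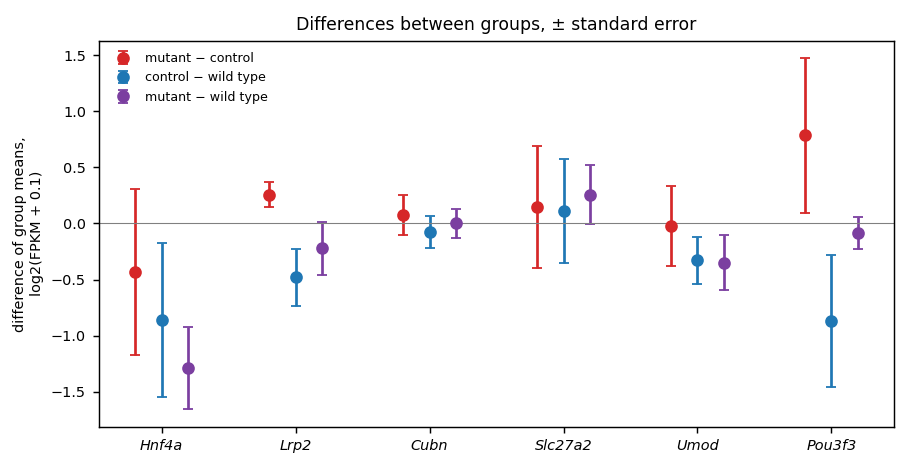
Difference of group means on the log2(FPKM + 0.1) scale (vertical axis) for the 6 members above 0 in every library, for mutant minus control (red), control minus wild type (blue) and mutant minus wild type (purple); points are differences and bars are standard errors from the pooled SD of the libraries. Hnf4a between mutant and wild type, at -1.29, lies farthest from 0.

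The wider tubule lists held 0 genes called by limma in any of the 3 comparisons. Of 28 other proximal tubule genes, 10 were tested between mutant and control, 7 lower and 3 higher, with 0 at an unadjusted p under 0.05 and a median log2 difference of -0.10. Among the most abundant were Dab2, an endocytic adaptor, at 32.7 ± 3.67 FPKM in mutants and 43.0 ± 8.96 in controls, and Anpep, a brush border aminopeptidase, at 13.6 ± 1.38 and 15.4 ± 3.35 (SD, n = 3 each). Wild type was at 31.0 ± 4.07 FPKM for Dab2 and 19.6 ± 3.13 for Anpep (SD, n = 4). Between control and wild type, 7 of 10 were lower and 3 higher, with a median of -0.20. At an unadjusted p under 0.05, 2 were higher, Aqp1 and Dab2 (3.84% of all genes), and 1 lower, Ggt1 (3.23%). Aqp1 and Ggt1 were named after their values were seen. Between mutant and wild type, 2 of 10 were lower at an unadjusted p under 0.05 (3.31% of all genes), Anpep at a log2 difference of -0.52 (standard error 0.14, limma adjusted p = 0.515) and Fxyd2, a regulator of the sodium pump named after its values were seen, at -0.88 (standard error 0.36, limma adjusted p = 0.831). These genes are also expressed by cells outside the tubule.

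Of 21 other loop and distal tubule genes, 7 were tested between mutant and control, 1 lower and 6 higher, with 0 called and a median log2 difference of 0.42. Against wild type the order was the opposite: 7 of 9 tested were lower in mutants (median -0.19) and 8 of 9 lower in controls (median -0.71), with 3 lower at an unadjusted p under 0.05 in each and 0 called. Those 3 were Ptger3, Irx1 and Mecom in mutants and Irx1, Irx2 and Mecom in controls, of which Irx1 and Irx2, transcription factors of the distal nephron, were named after their values were seen. Over all genes, 48.9% were lower in mutants and 51.6% in controls, with 3.31% and 3.23% lower at that p. Irx1 and Irx2 passed the filter on mean FPKM only in the comparisons with wild type, where they were highest. Irx1 averaged 1.16 FPKM in wild type, 0.389 in controls and 0.291 in mutants, and Irx2 1.08, 0.418 and 0.447. Their lower direction in the counts against wild type therefore follows from the filter. In the comparison of mutant and control, the lower one was Ptger3, a prostaglandin E receptor of the thick ascending limb, at 0.633 ± 0.110 FPKM in mutants and 1.99 ± 0.804 in controls (SD, n = 3 each). Its log2 difference was -1.44 (standard error 0.36, unadjusted p = 0.00617, limma adjusted p = 0.447), with every mutant below every control, as for 8.91% of all genes tested. Against wild type, at 2.26 ± 0.695 FPKM (n = 4), Ptger3 was lower in the mutants by a log2 difference of -1.65 (standard error 0.26, limma adjusted p = 0.140). Slc12a1 of that segment was listed at 0 in all controls and mutants, and which cells made the Ptger3 RNA was not tested. The 3 most abundant genes were Mecom, Wnk4 and Tfap2b. Tfap2b, a transcription factor of the distal tubule, was at 6.41 ± 0.476 FPKM in mutants, 4.12 ± 2.71 in controls and 7.09 ± 0.681 in wild type, and like Pou3f3 it was lowest in control 3. Mecom was at 45.4 ± 1.61, 37.6 ± 9.01 and 51.7 ± 2.55 FPKM and Wnk4, a kinase that controls salt transport, at 15.1 ± 1.83, 13.6 ± 1.39 and 12.6 ± 2.28 FPKM in the same order.

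The stage before the tubule, the renal vesicle and S-shaped body, was read from 15 early nephron genes, all of which were tested. Between mutant and wild type, 12 were lower and 3 higher. The median log2 difference was -0.40 against 0.0034 over all genes. At an unadjusted p under 0.05, 7 were lower and 1, Wnt4, was higher, and 7 and 1 had no overlap between the groups. Over all genes the shares were 3.31% and 2.45% at that p, and 3.54% and 3.56% without overlap. No gene of the list passed the adjusted threshold. Chosen after its values were seen, Hes5, a target of Notch signalling, had the smallest p, at 0.763 ± 0.0683 FPKM in mutants (n = 3) and 2.32 ± 0.650 in wild type (n = 4), a log2 difference of -1.45 (standard error 0.23, limma adjusted p = 0.140). Controls averaged 1.05 ± 1.10 FPKM for Hes5 (n = 3) and overlapped both groups. Its log2 difference was 0.0057 between mutant and control and -1.46 between control and wild type. Among the other Notch pathway genes of the list, grouped after their values were seen, mutant and wild type were compared first. The log2 difference was -0.79 for the ligand Dll1 (limma adjusted p = 0.259) and -0.57 for the modifier Lfng (limma adjusted p = 0.247). It was -0.26 for the ligand Jag1 (limma adjusted p = 0.941) and -0.24 for the target Heyl (limma adjusted p = 0.947), for both of which the groups overlapped. Between control and wild type it was -0.87 for Dll1, -0.22 for Lfng, -0.70 for Jag1 and -0.26 for Heyl. Between mutant and control it was 0.07, -0.35, 0.45 and 0.02 in the same order. Without wild type 3, 13 of the 15 list genes were lower in mutants than in wild type, 9 of them at an unadjusted p under 0.05.

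Between control and wild type all 15 early nephron genes were lower, 7 of them at an unadjusted p under 0.05, with a median log2 difference of -0.81 and 0 called. Over all genes 51.6% were lower and 3.23% were lower at that p. Between mutant and control 14 were higher and 1 lower, with a median of 0.43 and 0 called, where 48.8% of all genes were lower. In that comparison Cdh4, a cadherin, was higher at an unadjusted p of 0.0257 (log2 difference 0.43, standard error 0.15, limma adjusted p = 0.447), and Lfng was lower at an unadjusted p of 0.0262 (log2 difference -0.35, standard error 0.12, limma adjusted p = 0.447). Without control 3, 5 of the 15 were lower in the mutants than in the controls with 0 at an unadjusted p under 0.05, and all 15 were still lower in controls than in wild type with 3 at that level. The comparisons share their libraries, so these counts are set side by side and are not independent.

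**Figure D3:**
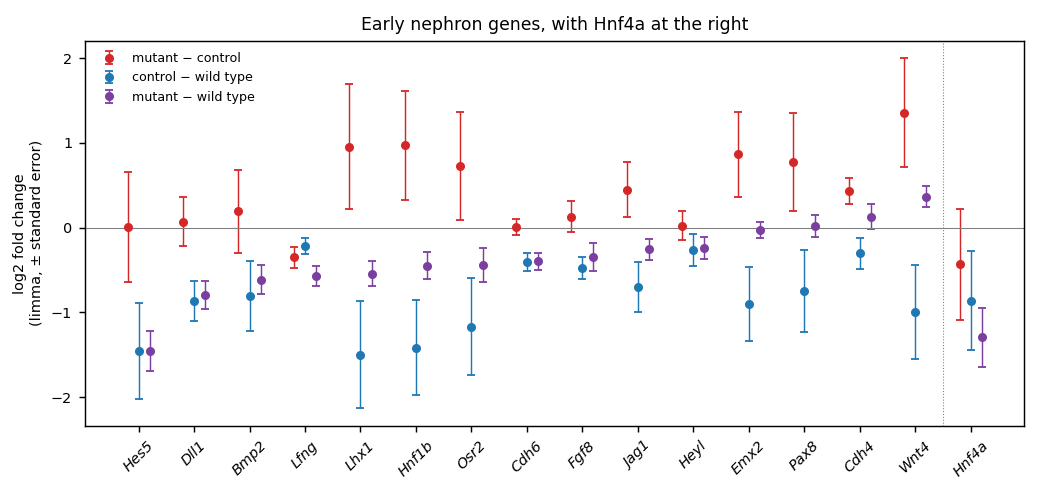
Log2 fold change from limma (vertical axis) with its standard error for the 15 early nephron genes and, right of the dotted line, Hnf4a, for mutant minus control (red), control minus wild type (blue) and mutant minus wild type (purple). All 15 blue points lie below 0, 12 of the purple points do, and 14 of the red points lie above 0, with long bars for red and blue.

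Nephron progenitor genes were read in the same way. Of the 9 progenitor genes tested between mutant and control, 4 were lower and 5 higher, 0 were called and the median log2 difference was 0.04. Against wild type 7 of the 9 were higher both in mutants (median 0.11) and in controls (median 0.16), with 0 called. At an unadjusted p under 0.05, 1 was higher in mutants, Eya1 (named after its values were seen, log2 difference 0.27, limma adjusted p = 0.628), and 0 in controls, where 2.45% and 3.84% of all genes were. Sall1, a transcription factor of the cap mesenchyme, was higher at an unadjusted p of 0.0397 (65.1 ± 7.72 FPKM in mutants, 52.7 ± 5.57 in controls, SD, n = 3 each, limma adjusted p = 0.447). The summed progenitor level in control 3 was 464 FPKM, the highest of the 10 libraries, while its summed early nephron level was 85.4 FPKM, the lowest.

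Genes typical of other tissues varied with the groups and libraries. The 14 liver and gut genes summed to 4.70 to 16.0 FPKM in mutants, 13.6 to 34.7 in controls and 7.80 to 26.2 in wild type. Between mutant and control 6 of 6 tested were lower, 5 at an unadjusted p under 0.05 and 0 called, with the smallest p for Afp (log2 difference -2.07), Alb (-1.99) and Apoa2 (-0.97), and then Serpina6 and Apoa1. Over all genes 48.8% were lower and 5.17% were lower at that p. Hnf4a is also a liver and gut gene, and the list was lower, like Hnf4a, between mutant and control and between mutant and wild type (4 of 4 tested). Between control and wild type it went the other way, with 6 of 6 tested genes higher (median log2 difference 0.99) where Hnf4a was lower. Ahsg and Serpina6 passed the filter on mean FPKM only in comparisons with the controls, where both were highest (0.723 and 1.66 FPKM). Their direction in these counts therefore follows in part from the filter. Control 3 had one of the highest liver and gut sums, 30.8 FPKM, and the lowest Hnf4a.

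The 5 skeletal muscle genes summed to 8.57 to 53.5 FPKM in mutants, 45.6 to 801 in controls and 90.9 to 161 in wild type, with control 3 at 801. Of the 5, 4 were lower in mutants than controls at an unadjusted p under 0.05 (Myog, Myod1, Acta1 and Actc1) and 0 were called, where 5.17% of all genes were lower at that p. Against wild type, all 5 were lower in mutants at that p with no overlap (median log2 difference -2.14), and 0 were called. Over all genes 3.31% were lower at that p and 3.54% were lower without overlap. The erythroid genes summed to 3236 to 7376 FPKM in wild type, 5711 to 12231 in controls and 3412 to 13610 in mutants. All 5 were higher in controls than in wild type at an unadjusted p under 0.05 (median log2 difference 1.04, 0 called, 3.84% of all genes higher at that p), in the comparison in which the 15 early nephron genes were lower. The neural sum ran from 19.0 to 29.9 FPKM across libraries and the adrenal and gonad sum from 0.379 to 1.28 FPKM. The ureteric list summed to 107 FPKM in control 3 and to 221 to 260 FPKM elsewhere. Among 5 stromal genes, all 5 were lower in mutants than controls, with Ntn1 at an unadjusted p under 0.05. The paper reports lower gene sets of muscle cell differentiation in its mutants. Whether these transcripts came from kidney cells or from other tissue was not tested. Nor was their part in the member values.

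**Figure D4:**
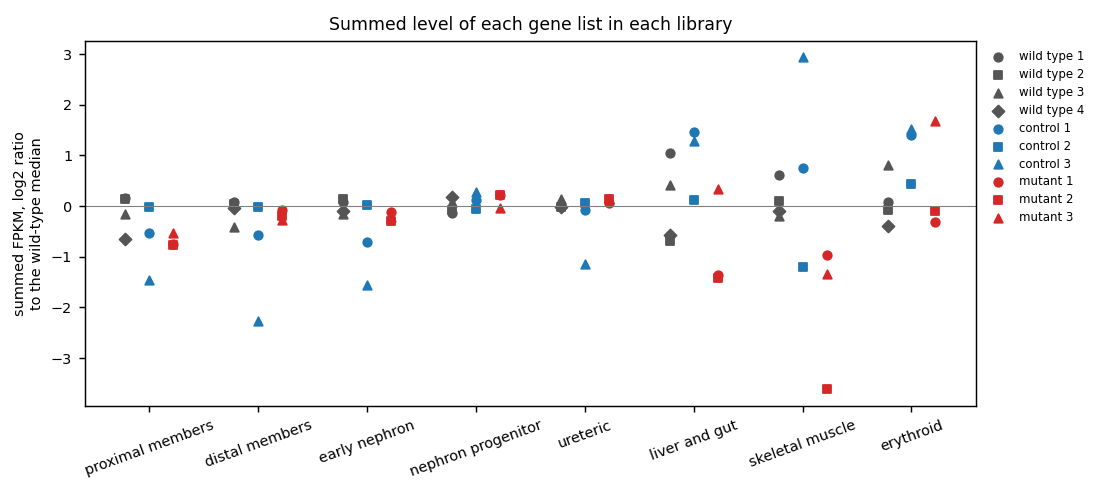
Summed FPKM of 8 gene lists in each library as the log2 ratio to the wild-type median of that list (vertical axis), with wild type in grey, control in blue and mutant in red; the marker shape gives the replicate number, which does not link libraries of different groups. Control 3 (blue triangles) is lowest for the proximal and distal members, early nephron and ureteric lists and highest for skeletal muscle.

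The genes whose pattern over the 10 libraries was most like that of Hnf4a and of Pou3f3 were ranked by Pearson's r on the log2 scale, among 14533 genes. For Hnf4a they were Ubl7 (r = 0.93), Pter (0.93), Steap2 (0.92), Gm13502 (0.92) and Dpp4 (0.92). Dpp4, a brush border peptidase, ranged from 2.23 FPKM in control 3 to 7.96 FPKM in wild type 3. Without the 2 libraries farthest from the median of Hnf4a, control 3 and wild type 1, the values were 0.94, 0.90, 0.84, 0.94 and 0.90.

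For Pou3f3 they were Vwa2, Hs3st3b1, Lratd2, Tfap2b and Arl4c, with r between 0.991 and 0.996. All 5 were lowest in control 3, and without control 3 and control 1 their r was between 0.83 and 0.91. By Spearman's rho, 1 of the 5 genes for Hnf4a and 2 of the 5 for Pou3f3 were among the top 5 again. The libraries come from one table and have like depth, and the list is a description of likeness over 10 libraries.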

How the data were processed

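RNA of whole E13.5 kidneys was sequenced in 4 wild-type, 3 Foxd1-Cre control and 3 Ntn1SPKO libraries, grouped by the labels. The authors demultiplexed reads with bcl2fastq 2.17.1.14, quantified them with Salmon against GRCm38 coding sequences (per their methods and the submitters' processing notes) and deposited FPKM values per gene, not counts. The count test of the study could therefore not be repeated.

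Differences were computed on log2(FPKM + 0.1). Genes averaging 0.5 FPKM or more across the libraries compared were tested with limma 3.58.1 (R 4.3.3, empirical Bayes with trend, only the 2 groups compared), with Benjamini-Hochberg adjustment over all tested genes. Calls needed an adjusted p below 0.1 and a 2-fold or larger change. Each member was also given an exact two-sided permutation test over libraries, which is unadjusted (10 members in 3 comparisons). The fit was tested on simulated data. Fragments behind a value were estimated from the size of the smallest FPKM steps and coding length, with an allowance of 200 bases for fragment length, and are approximate.

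Gene positions came from GENCODE (GRCm38) and promoters from RefSeq (GRCm38.p6). The members and lists were chosen with earlier results of these data known. Named genes were all members, list genes with an unadjusted p under 0.05 between mutant and control (at most 6 a list), the 3 most abundant genes of each tubule list, and the 5 genes most like Hnf4a and Pou3f3. One gene that the rule names is not reported here. Lists were other proximal tubule, other distal tubule, early nephron, nephron progenitor, ureteric, stroma, liver and gut, neural, adrenal and gonad, skeletal muscle and erythroid. Alternatives changed the pseudocount, filter, scaling, shrinkage, libraries fitted, replicate block, a Y-linked covariate (summed Y-linked FPKM above 10), thresholds and left out each library.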

Additional observations from a re-analysis of the deposited data

Results flagged for a closer look

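Among 34 values of members and list genes in the 4 wild-type libraries that were examined, 3 had 1 library far from the other 3 (past Dixon's 95% critical value). Chance gives about 1 in 20, but this does not apply to the first 2, whose other 3 libraries were all listed at 0, so that any value above 0 passes. Slc34a1 was at 0.0164 FPKM in wild type 1 and listed at 0 in the others. Fbp1 was at 0.0270 FPKM in wild type 2 and listed at 0 in the others. Both values correspond to about 1 fragment. Irx1, a transcription factor of the distal nephron, was lowest in 1 wild-type library at 0.469 FPKM, where the mean of the 4 was 1.16 FPKM.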

How the results depend on the processing

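No member was called under any alternative run, except that Hnf4a was called between mutant and wild type (1 member) when an unadjusted p under 0.1 with a 2-fold change was used. The genes called over the whole table, 8 between mutant and control, 1 between control and wild type and 7 between mutant and wild type, moved more. In that order they were 21, 9 and 18 without a filter, 0, 0 and 0 with all 10 libraries in one fit, and 334, 207 and 201 at an unadjusted p under 0.1 with a 2-fold change. Between control and wild type 2 were called with a pseudocount of 1, 2 with a pseudocount of 0.01 and 4 without a trend. Between mutant and wild type 2 were called with a pseudocount of 1 and 12 without a trend. Leaving out each library in turn gave 3 to 78, 3 to 20 and 1 to 20 genes, with 78 without control 2. With Y-linked transcripts as a covariate 4 genes were called between mutant and control and 187 between mutant and wild type. All 3 mutants had Y-linked transcripts, as did 1 control (control 2) and 1 wild-type library (wild type 3), so these fits set the mutants against that single library. The cause of the other moves was not tested.

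Replicate numbers did not pair the samples (the correlations of same-numbered deviations ran from -0.05 to 0.08), which share only a number. With the replicate block 4 genes were called between mutant and control.

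Among the tested members (Hnf4a, Lrp2 and Pou3f3) directions turned in 4 cases. Hnf4a between mutant and control had a log2 difference of 0.15 without control 2 and ran down to -1.09 without control 3. With the Y-linked covariate, and so against control 2 or wild type 3 alone, Pou3f3 had one of -0.17 between mutant and control, and between mutant and wild type Lrp2 had 0.12 and Pou3f3 0.25. The Y-linked covariate gave Hnf4a -1.60 and -1.48 in the same 2 comparisons. The median over 6 members turned to -0.03 and 0.05 there. Members too low to test also changed sign, such as Slc27a2 between mutant and control (-0.35 without control 3) and Umod (0.22 without mutant 1). For early nephron genes, in alternatives chosen after seeing the data, leaving out control 3 gave 5 lower between mutant and control, 0 of them at an unadjusted p under 0.05, and 3 at that level between control and wild type. FPKM of genes with 1 to 3 fragments cannot show a difference at this depth.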
